A study of Caenorhabditis elegans with 16 samples.

Results

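The comparison described here asked whether tunicamycin changed the transcriptome of Caenorhabditis elegans differently when the worms were exposed as embryos or as L4 larvae. All 16 libraries of the series entered it, and 13856 of the 46589 genes in the table were tested, those whose mean over the 16 libraries was at least 1 FPKM (fragments per kilobase of gene and per fixed number of sequenced fragments). Just inside that limit lay T22B7.3, with a mean of 1.0 FPKM, and just outside it C27A7.3, at 0.999881 FPKM. The wild-type strain N2 was used throughout. There were 4 groups with 4 libraries each. EMBRYO CNT and EMBRYO TM were kept as embryos at 20 °C for 24 h in liquid S medium, without or with tunicamycin at 1.25 μg/ml. The larvae were then moved to NGM plates to grow to adulthood. L4 CNT and L4 TM had their 24 h, without or with the same dose, from the L4 stage to Day 1 of adulthood. RNA was taken from whole Day 1 adults, with one plate population per library. The time from exposure to harvest therefore differed between the stages, and it cannot be told apart from stage here. Each stage has its own untreated control. The interaction is the EMBRYO effect (EMBRYO TM minus EMBRYO CNT) minus the L4 effect (L4 TM minus L4 CNT), both in units of log2(FPKM + 1). A positive interaction therefore means that the EMBRYO effect was the higher one, and not that the gene rose.

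Tunicamycin blocks the first step of N-linked glycosylation in the endoplasmic reticulum (ER). Proteins that fail to fold there activate the unfolded protein response (UPR), whose sensors IRE-1, PEK-1 (the worm PERK) and ATF-6 raise chaperones and degradation genes. In the worm the intestine carries out digestion, lysosomal breakdown, fat metabolism and yolk synthesis.

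The number of fragments assigned to genes, recovered from the FPKM values, lay between 12361026 and 26922902 in 15 libraries. For L4 TM replicate 4 the same calculation gave 47193068, yet that library had the fewest detected genes, 15377 against 17539 to 21833 in the other 15. Only 0.702% of its detected genes stood at 1 unit, against 8.97% to 10.9% elsewhere, and more genes stood at 10 units (131) than at 1 (108). Its values shared no common factor (49.6% were even), so no larger unit could be taken, but the number cannot be read as the depth or the precision of that library. Farthest from the rest of their groups stood 3 libraries: L4 TM replicate 4, EMBRYO TM replicate 4 and L4 CNT replicate 2, with root mean square distances of 0.556, 0.504 and 0.394 log2 units from the mean of the other 3. EMBRYO TM replicate 3 was also at 0.394, so the cut after L4 CNT replicate 2 was arbitrary. Counts without the 3 libraries, but with EMBRYO TM replicate 3, are given below. The labelled stage was checked against markers. The oocyte and eggshell genes of egg-laying adults were present in all groups, with the lowest group mean at 57.9 FPKM (chs-1 in EMBRYO CNT). The yolk protein genes were not alike in this: vit-1, vit-3 and vit-4 were at 3.21 to 6.14, 2.88 to 5.86 and 0.972 to 2.05 FPKM in EMBRYO CNT, against 707 to 799.8, 991 to 1199 and 1012 to 1276 FPKM in L4 CNT, while vit-2 was at 2568 to 3660.1 FPKM in EMBRYO CNT and made up most of the sum there. The EMBRYO CNT worms had the lowest yolk sums, 3679 to 5613 FPKM over the 6 vit genes, against 6496 to 22386 in EMBRYO TM, 19651 to 23421 in L4 CNT and 13948 to 17790 in L4 TM. In such bulk libraries fewer cells of a type and less RNA per cell cannot be told apart. The headings of the table itself call the EMBRYO columns L1 and the L4 columns D1. The sum over 8 moulting genes was 112 to 133 FPKM in EMBRYO CNT and 63.6 to 65.6 FPKM in L4 CNT, and whether the worms were all at one point of adulthood was not tested. The genes that differ between the control groups were many (3443 genes, 24.8%, higher and 2061 genes, 14.9%, lower in EMBRYO CNT than in L4 CNT), and that contrast shares its control libraries with the interaction, so levels are printed for all 4 groups.

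A gene was called where its interaction exceeded 1 log2 unit in size and its adjusted p was under 0.05 in limma with the Benjamini-Hochberg adjustment over all 13856 genes. By that rule 1486 genes (10.7%) responded differently at the stages, of which 901 (6.5%) had the higher effect in EMBRYO worms and 585 (4.22%) the lower one. Without the 3 distant libraries the counts were 949 and 662, and 1341 of the 1482 calls whose genes were still tested were kept. The EMBRYO effect was itself called, by the same rule, for 744 genes upward (5.37%) and 1050 downward (7.58%), and the L4 effect for 71 upward (0.512%) and 388 downward (2.8%). Over all 13856 genes the effects at the stages had a Pearson correlation of 0.33 and a Spearman correlation of 0.44. This is a description across genes, which are not independent replicates, from libraries that share no sample. The median over all genes tested was -0.01 for the interaction, 0.0 for the EMBRYO effect and 0.02 for the L4 effect.

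The called genes were then divided by the shape of their response. Opposite genes had adjusted p under 0.05 for both effects and opposite signs. A response at one stage alone needed an effect of more than 1 log2 unit at that stage and a 95% interval within ±0.5 at the other. Genes that met this rule and another were counted at one stage alone, so the opposite genes leave out some whose smaller effect passed the test. Of the called genes, 276 (1.99% of those tested) rose in EMBRYO TM and fell in L4 TM, while 39 (0.281%) fell in EMBRYO TM and rose in L4 TM. In 261 of these 315 genes the TM libraries did not overlap the CNT libraries at either stage. EMBRYO worms alone responded in 185 genes upward (1.34%) and 179 downward (1.29%), whereas L4 worms alone responded in 3 upward (0.0217%) and 52 downward (0.375%). Both effects went the same way with different size in 78 genes upward (0.563%) and 83 downward (0.599%), and the remaining 591 (4.27%) met none of these rules. Leaving out the 3 distant libraries gave 317 and 55 opposite genes, 469 that responded in EMBRYO worms alone and 63 in L4 worms alone. The plot of both effects shows these shapes.

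**Figure D1:**
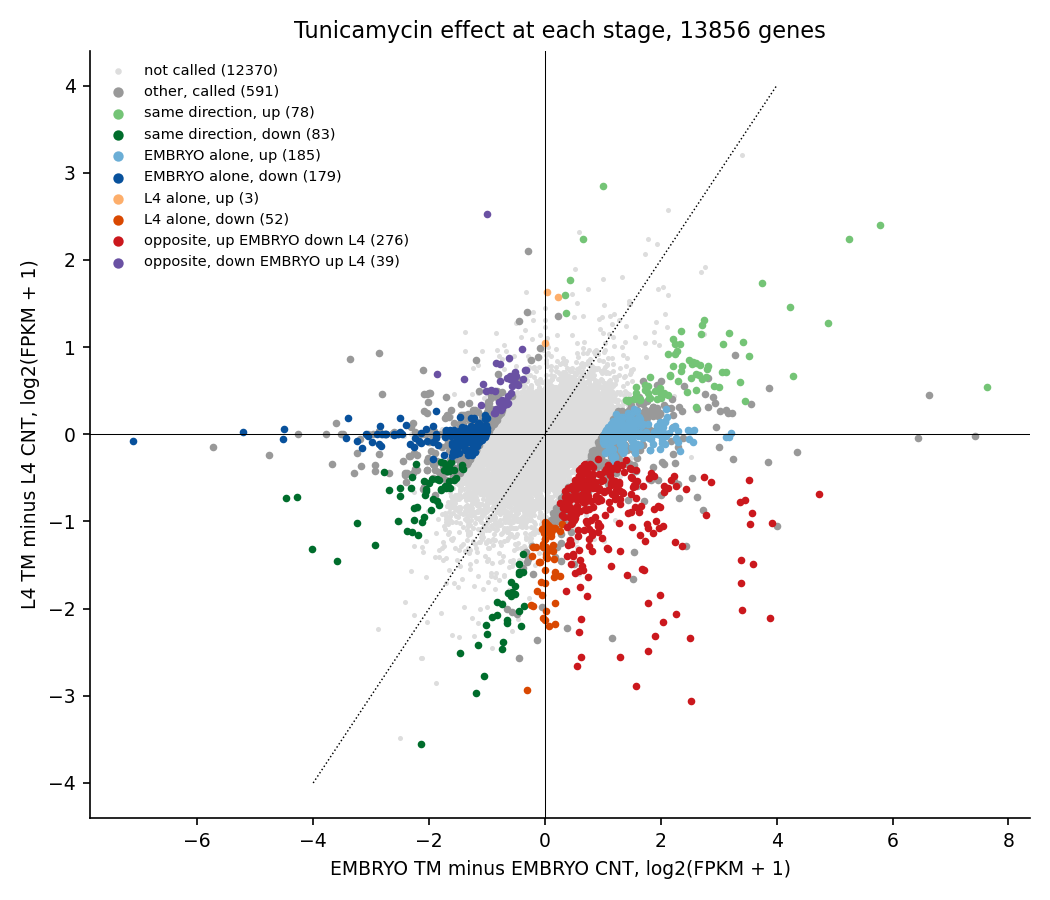
Effect of tunicamycin in EMBRYO worms (x axis) against L4 worms (y axis), each as the TM minus CNT difference of mean log2(FPKM + 1), 1 point per gene tested. Coloured points are the called genes of each shape, dark grey points the called genes of no shape and light grey points the genes not called. The dotted line marks equal effects at both stages, and the 276 genes that rose in EMBRYO TM and fell in L4 TM lie in the lower right.

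Of all genes tested, 1.99% rose in EMBRYO TM and fell in L4 TM. The function lists with the most members in this class were C-type lectins (18 of 87 tested) and lysozymes and saposin-like proteins (13 of 35). Next came cathepsin and aspartyl proteases (9 of 23) and F-box, MATH and BTB genes (8 of 212). Peroxisomal beta-oxidation (13 tested), other lysosomal genes (25 tested) and the pud family (6 tested) gave 6 each. The pud family is named for its regulation in the daf-2 insulin receptor mutant. Median levels of the 276 genes were 10.1 FPKM in EMBRYO CNT, 24.4 FPKM in EMBRYO TM, 27.5 FPKM in L4 CNT and 13.6 FPKM in L4 TM. The median effect was 0.82 log2 units in EMBRYO worms and -0.72 in L4 worms. In 35 of the 276 genes both effects exceeded 1, and 13 of these 35 lay on chromosome V. All 6 pud genes were among the 13, side by side between positions 2322038 and 2330930. Of the whole class 28.3% lay on chromosome V, compared with 18.3% of all genes tested. The summed level of 8 intestinal markers was 8483 to 9475 FPKM in EMBRYO CNT, 6930 to 15595 in EMBRYO TM, 4395 to 5842 in L4 CNT and 2433 to 3450 in L4 TM, and 6 of the 8 genes were called higher. Most of that sum was the protease asp-1, which is also in the protease list. The other 7 summed to 583 to 627 FPKM in EMBRYO CNT, 922 to 1286 in EMBRYO TM, 795 to 960.3 in L4 CNT and 656 to 921 in L4 TM, so that without asp-1 the L4 groups overlapped and the order of the control groups was turned round. Only the esterase gene ges-1 among the 8 was an opposite gene. The peptide transporter pept-1 rose at both stages, by 2.6 and 0.51, and the intestinal actin act-5 had effects of 2.29 and -0.14. The part of these markers in the protease, lipase, peroxisome and lysozyme results was not tested.

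Proteases of the lysosome and gut lumen were mostly called higher. Of 23 cathepsin and aspartyl protease genes tested, 17 were called higher and 2 lower (cpr-2 and cpz-2), and 9 were opposite genes, with a median interaction of 1.53 log2 units against -0.01 over all genes. The cathepsin B-like protease cpr-4 stood at 153, 175, 168 and 175 FPKM in EMBRYO CNT and 1926, 1819, 2016 and 1445 FPKM in EMBRYO TM. In the L4 groups it was 627, 419.7, 642 and 647 FPKM in CNT and 152, 149.6, 157 and 113 FPKM in TM. No library of a TM group overlapped its control, in opposite directions at the stages. The effects were 3.41 and -2.01 log2 units, and the interaction was 5.42 ± 0.21 (SE; limma, Benjamini-Hochberg adjusted p = 4.19e-11). Another cathepsin B-like gene, cpr-1, rose from a mean of 944 to 3542 FPKM in EMBRYO worms and fell from 1111 to 223 FPKM in L4 worms, an interaction of 4.21. The aspartyl protease asp-12 ranged over 7.9 to 9.36 FPKM in EMBRYO CNT and 89.96 to 109 FPKM in EMBRYO TM, then 24 to 27.1 FPKM in L4 CNT and 13.2 to 16.3 FPKM in L4 TM. Its interaction of 4.15 came mainly from the EMBRYO side, with effects of 3.37 and -0.78.

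Lysosomal lipases free fatty acids from stored and ingested fat. Of 5 lipase genes tested, 3 were called higher and all 3 were opposite genes, with a list median of 2.0. The lipase lipl-1, an acid lipase that breaks down lipid delivered to the lysosome, had 8.92, 8.03, 8.31 and 8.07 FPKM in EMBRYO CNT and 100.3, 91.4, 87.6 and 108 FPKM in EMBRYO TM. In L4 worms the values were 31.8, 36.1, 34.2 and 32.8 FPKM in CNT and 9.11, 10.3, 8.63 and 10.7 FPKM in TM. All EMBRYO TM libraries were above, and all L4 TM libraries below, their controls, and the interaction was 5.09 ± 0.12 (SE; limma, Benjamini-Hochberg adjusted p = 6.21e-14). Its relatives lipl-2 and lipl-3 had interactions of 2.35 and 2.0. In lipl-2 the larger effect was the L4 fall of -1.76, and in lipl-3 the EMBRYO rise of 1.34. Among 25 other lysosomal genes 8 were called, all higher, although the list median was 0.0. The 3 largest were the glucocerebrosidase homologues gba-4 and gba-1, with 2.86 and 2.51, and the acid ceramidase asah-1, with 2.4. In the separate list of sphingolipid and ceramide metabolism 2 of 16 genes were called (12.5%, against 10.7% over all genes) and none was an opposite gene. That list does not hold gba-4, gba-1 and asah-1, which were counted among the other lysosomal genes and were all opposite genes. Of the 21 genes of the vacuolar ATPase, the proton pump that acidifies the lysosome, 2 were called (9.52%), but 13 had adjusted p under 0.05 whatever the size (limma, Benjamini-Hochberg), and the list median was 0.38.

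Peroxisomes shorten very long chain fatty acids, and in worms they also process the side chains of ascaroside pheromones. Of 13 peroxisomal beta-oxidation genes 11 were called higher and none lower, with 6 opposite genes and medians of 0.76 for the EMBRYO effect and -1.23 for the L4 effect. The acyl-CoA oxidase acox-1.5, which catalyses the first oxidation step, was listed at 7.0, 7.75, 7.86 and 8.27 FPKM in EMBRYO CNT and 95.3, 87.4, 83.2 and 96.1 FPKM in EMBRYO TM. The L4 CNT libraries held 177, 169, 179.6 and 179.8 FPKM and the L4 TM libraries 67.6, 62.4, 66 and 61.3 FPKM. The groups were far apart at both stages, with an interaction of 4.83 ± 0.1 (SE; limma, Benjamini-Hochberg adjusted p = 7.64e-15). The enoyl-CoA hydratase family gene ech-9 was near 1 FPKM in EMBRYO CNT (0.843 to 1.27) and 42.7 to 72.2 FPKM in EMBRYO TM. It went the other way in L4 worms, 4.83 to 7.73 FPKM in CNT and 3.13 to 4.13 FPKM in TM, for an interaction of 5.41. For dhs-28, a dehydrogenase of the same pathway, the effects were 0.76 and -1.29. Among 16 genes for peroxisome assembly and transport, 8 were called higher and none lower, with a median of 0.99. The peroxisome division gene prx-11 fell from a mean of 90.8 to 38.7 FPKM in L4 worms and rose from 9.58 to 13.2 FPKM in EMBRYO worms. The peroxisomal catalase ctl-2 had an interaction of 2.38 and the peroxisomal Lon protease lonp-2 one of 2.16, both with opposite effects. Without the 3 distant libraries the beta-oxidation list held 10 called genes and the assembly list 8.

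The pud genes were the only function list of 5 or more tested genes in which every member was an opposite gene. They were named as proteins raised in daf-2 mutants, and their biochemical role is unknown. All 6 were called higher, with medians of 3.78 for the interaction, 1.74 for the EMBRYO effect and -2.04 for the L4 effect. The values of pud-3 were 10.8, 13.7, 17.5 and 15.9 FPKM in EMBRYO CNT and 92.5, 73.4, 63.7 and 123 FPKM in EMBRYO TM. They were 166, 109.7, 162 and 162 FPKM in L4 CNT and 34.9, 31.4, 31.2 and 19.2 FPKM in L4 TM. At each stage the groups were separate, and the interaction was 4.84 ± 0.31 (SE; limma, Benjamini-Hochberg adjusted p = 1.14e-08). The others had interactions of 3.27 (pud-1.1), 3.7 (pud-1.2), 4.2 (pud-2.2), 3.86 (pud-4) and 3.04 (pud-2.1). In pud-2.1 the EMBRYO groups overlapped, because EMBRYO CNT replicate 4 stood at 25.7 FPKM, and without that library its interaction was 3.65. Some pud genes are near copies of each other, so that how fragments were shared among them is uncertain.

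**Figure D2:**
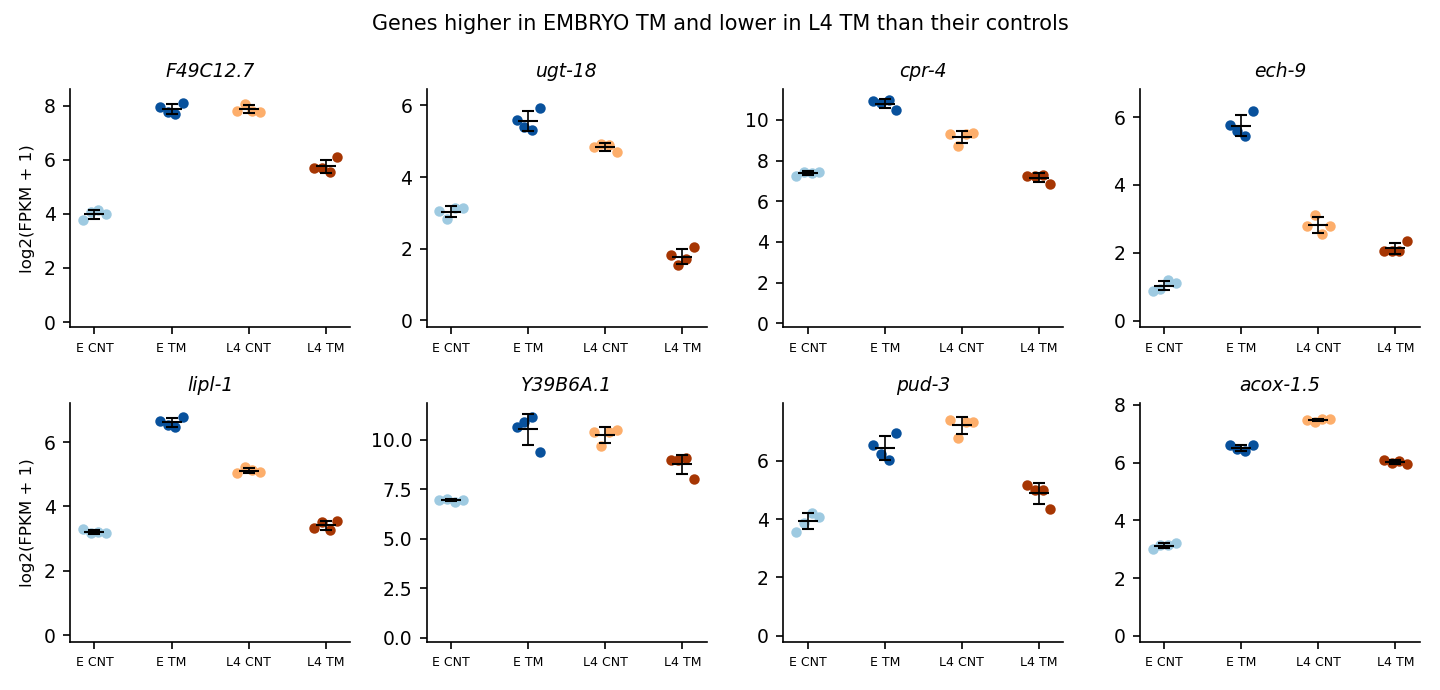
Level in log2(FPKM + 1) of the 8 genes with the largest interaction among those that rose in EMBRYO TM and fell in L4 TM and whose TM and CNT libraries overlapped at neither stage. Points are single libraries, 4 per group, and bars the mean ± SD; in each panel EMBRYO TM (E TM) lies above EMBRYO CNT (E CNT), and L4 TM below L4 CNT.

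Genes of the gut's defence against bacteria were also divided between the stages. Of 35 lysozyme and saposin-like genes, 19 were called higher and 3 lower (lys-3, spp-15 and spp-20), and 13 were opposite genes. The list medians were 1.32 for the interaction, 0.33 for the EMBRYO effect and -0.65 for the L4 effect. The invertebrate lysozyme ilys-5 was at 39 to 48.4 FPKM in EMBRYO CNT and 578 to 706 FPKM in EMBRYO TM, whereas its L4 groups overlapped, at 596 to 1065 FPKM in CNT and 199 to 607 FPKM in TM. The saposin-like gene spp-4, of a family of pore-forming antimicrobial proteins, rose from a range of 23.8 to 32.3 FPKM to one of 277 to 405 FPKM in EMBRYO worms and fell from a range of 112 to 176 FPKM to one of 31.7 to 102 FPKM in L4 worms. Its relative spp-21 was listed at 0 in all 4 L4 TM libraries, so no fold is given for that side, and at 14.2 to 27.1 FPKM in EMBRYO TM against 0.399 to 1.44 FPKM in EMBRYO CNT. Of 87 C-type lectins, carbohydrate-binding proteins many of which are induced by infection, 38 were called higher and 4 lower, and 18 were opposite genes, with a median interaction of 0.75. The infection response gene irg-7 was an opposite gene with effects of 0.94 and -0.45.

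Some opposite genes lay outside these groups. The glucuronosyltransferase ugt-18, of a family that conjugates foreign compounds, had 7.32, 6.05, 7.8 and 7.73 FPKM in EMBRYO CNT and 47.6, 41.4, 38.5 and 60.0 FPKM in EMBRYO TM. Its L4 values were 27.6, 29.3, 28.8 and 24.9 FPKM in CNT and 2.51, 1.89, 2.27 and 3.13 FPKM in TM, so that the order of TM and CNT was turned round without overlap. The interaction of 5.59 ± 0.19 (SE; limma, Benjamini-Hochberg adjusted p = 8.81e-12) compares with a median of 0.28 over the 45 genes of its family tested. Of these 45, 9 were called higher and 2 lower (24.4%). F49C12.7, for which no role is given here, had the largest interaction of all opposite genes, 5.99 ± 0.18. It was at 12.5, 15.9, 16.7 and 14.8 FPKM in EMBRYO CNT, 246, 219, 205 and 273 FPKM in EMBRYO TM, 225, 269, 225 and 215 FPKM in L4 CNT and 50.9, 50.5, 46.2 and 67.9 FPKM in L4 TM. Y39B6A.1 was at 117 to 128 FPKM in EMBRYO CNT and 678 to 2306 FPKM in EMBRYO TM, where replicate 4 was the lowest. In L4 worms it fell from a range of 812 to 1465 FPKM to one of 257 to 535 FPKM. The delta-9 desaturases fat-7 and fat-5, which make oleic and palmitoleic acid, had interactions of 4.05 and 2.82. For fat-7 the levels were 8.87 to 11.6 FPKM in EMBRYO CNT against 106 to 144 FPKM in EMBRYO TM, 151 to 163 FPKM in L4 CNT and 106 to 109 FPKM in L4 TM. Of the 10 cytochrome P450 genes called among 42 tested (23.8%), cyp-37A1 alone was an opposite gene (0.46 and -1.49). Among 212 F-box, MATH and BTB genes, adaptors of ubiquitin ligases, 13 were called higher and 7 lower, or 9.43% in all, near the 10.7% over all genes. Of the 8 that were opposite, math-38 and math-34 had interactions of 2.22 and 2.05.

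The 39 genes that fell in EMBRYO TM and rose in L4 TM changed less. Their median effects were -0.71 and 0.57 log2 units, and in none did both effects exceed 1. The largest interaction was that of nspe-7, one of the small nematode-specific peptides, at 3.43, 1.88, 4.08 and 3.58 FPKM in EMBRYO CNT and 0.610, 0.913, 1.46 and 1.48 FPKM in EMBRYO TM. In L4 worms it was 0.119, 0.239, 0.353 and 0.157 FPKM in CNT and 5.46, 7.11, 6.09 and 5.35 FPKM in TM, the groups being separate at both stages. Its interaction was -3.52 ± 0.25 (SE; limma, Benjamini-Hochberg adjusted p = 3.72e-08), and its relative nspc-4 had one of -1.44. The serine protease inhibitor gene spi-2 went from a range of 4.34 to 6.77 FPKM to one of 0.947 to 1.99 FPKM in EMBRYO worms and from a range of 0.116 to 0.599 FPKM to one of 0.883 to 1.61 FPKM in L4 worms. The neuronal calcium sensor ncs-3 had effects of -1.06 and 0.58, and the bZIP transcription factor zip-8 effects of -1.02 and 0.49. The insulin-like peptide ins-29, with an interaction of -1.5, was never above 2.7 FPKM in any library, near the level at which the added 1 FPKM weighs on the log. W04E12.7 (-2.56) and T01D1.3 (-1.58) completed the 8 leading genes. With 5 FPKM added in place of 1, the interactions of spi-2, T01D1.3, zip-8 and ins-29 were no longer beyond 1.

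**Figure D3:**
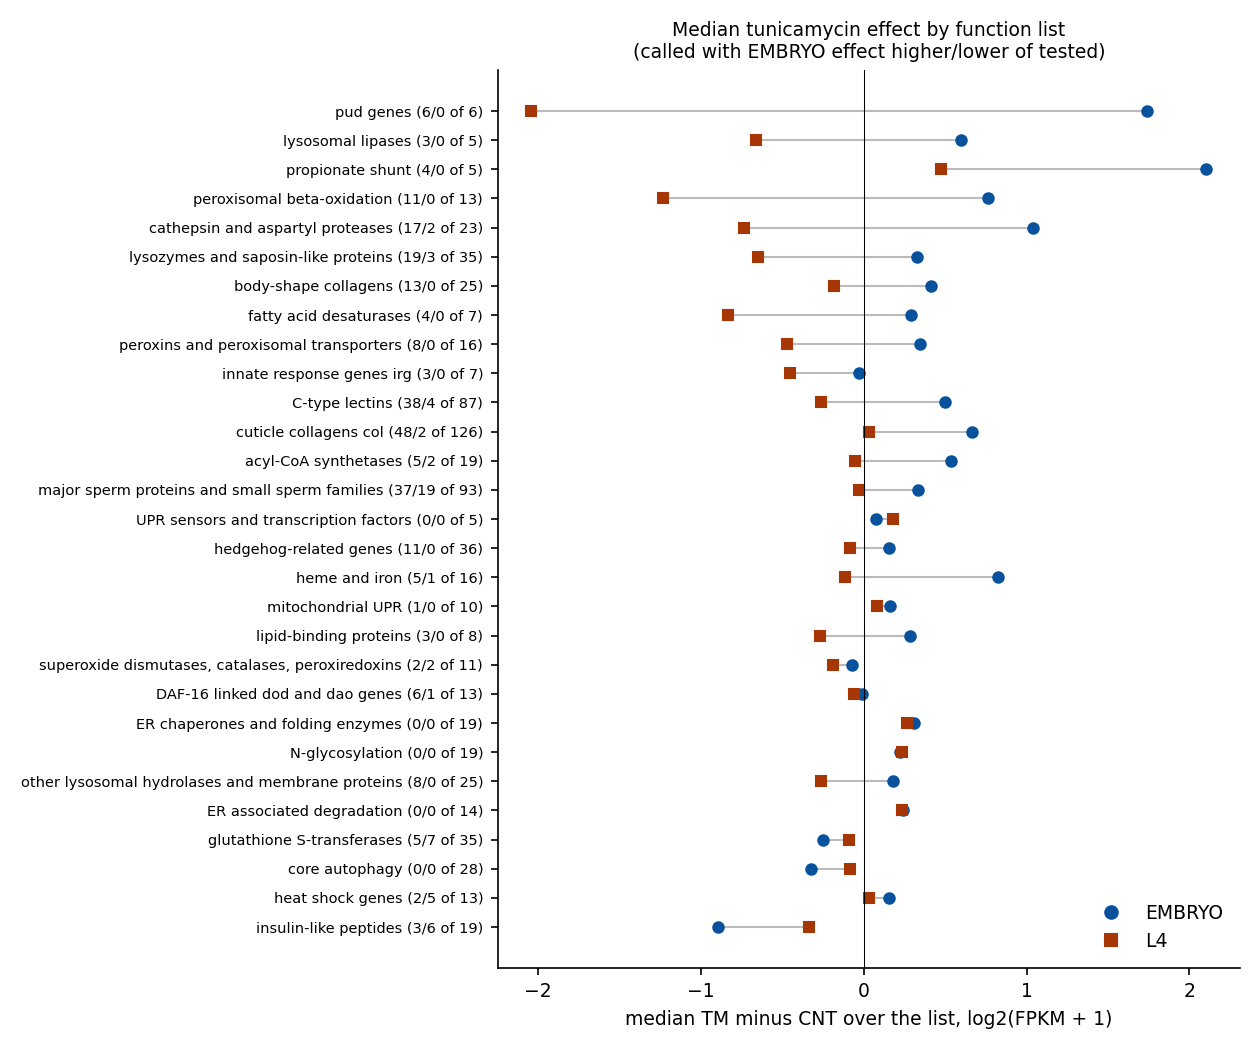
Median EMBRYO effect and median L4 effect, in log2(FPKM + 1) units, of the function lists named at the left, as circles for EMBRYO and squares for L4, with the genes called and tested in parentheses. The pud, protease and peroxisome lists have medians on opposite sides of 0, while the ER chaperone, ER associated degradation and N-glycosylation lists have nearly the same median at both stages.

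A rise in EMBRYO worms with an L4 effect close to 0 was seen in 185 genes, with median levels of 7.7 FPKM in EMBRYO CNT, 24.3 FPKM in EMBRYO TM and 13.7 FPKM in each L4 group. The largest was C23H5.8, at 4.27, 4.3, 4.68 and 4.38 FPKM in EMBRYO CNT, 51.3, 37.7, 43 and 68.5 FPKM in EMBRYO TM, 59.6, 62.8, 57.3 and 56 FPKM in L4 CNT and 57.2, 56.6, 55.9 and 70.01 FPKM in L4 TM. The EMBRYO TM libraries were all above their controls and in the range of, or below, the L4 groups. In contrast, the C-type lectin clec-70 was nearly absent outside one group, at 0 to 0.0803 FPKM in EMBRYO CNT against 6.83 to 9.82 FPKM in EMBRYO TM, 0.125 to 0.297 FPKM in L4 CNT and 0.137 to 0.357 FPKM in L4 TM. The methionine sulfoxide reductase msra-1, which repairs oxidised protein, rose from a range of 11.1 to 16.8 FPKM to one of 103 to 217 FPKM and was 27.2 to 34.1 FPKM in L4 CNT and 26.6 to 32.6 FPKM in L4 TM. The scavenger receptor scav-4, of the CD36 family, and Y47G6A.33 had interactions of 2.53 and 2.65. The peroxisomal transporter pmp-1 was another, with effects of 2.2 and 0.07, as was the infection response gene irg-4 (1.6 and 0.19) and the inositol transporter gene hmit-1.2, whose interaction of 1.08 was 0.99 without EMBRYO TM replicate 3.

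Sperm genes were the largest function list in this class. Of 93 major sperm protein and small sperm family genes, 37 were called higher and 19 lower, and 27 rose in EMBRYO worms alone. The major sperm proteins, which build the cytoskeleton of the crawling sperm, had EMBRYO effects of 1.43 to 2.08 and L4 effects of -0.18 to 0.23 among their called members. Since these genes are near copies of each other, fragments may be shared among them, and the count may be of fewer independent signals. The summed level of 6 sperm markers stood at 48.7 to 52.1 FPKM in EMBRYO CNT, 80.3 to 110 in EMBRYO TM, 15 to 19.4 in L4 CNT and 12.5 to 17.4 in L4 TM, and its part in the count was not tested. Among these markers the sperm-specific phosphatases gsp-3 and gsp-4 rose from means of 14.2 to 43.8 FPKM and of 8.89 to 29.3 FPKM, with L4 effects of -0.1 and 0.14. The EMBRYO means of spe-41 (2.68 to 5.26 FPKM) and spe-9 (0.552 to 0.969) also rose. Those of spe-11 (23.1 to 18.2) and spe-38 (1.22 to 0.394) fell. Of 25 spermatogenesis genes, gsp-3 and gsp-4 among them, 4 were called, all higher (16%, against 10.7% over all genes). The 19 called lower were 18 nematode-specific peptide genes of the nspa, nspc and nspe families and ssp-32. Of these, nspe-6 fell from a range of 16.13 to 22.2 FPKM to one of 2.04 to 2.68 FPKM in EMBRYO worms, and nspa-7 (-2.91) had overlapping EMBRYO groups and was not called by voom, the version of limma for read counts that was run on the recovered reads. Chromosome IV carried 29.7% of the genes that rose in EMBRYO worms alone, compared with 18.8% of all genes tested.

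Of the 179 genes that fell in EMBRYO worms alone, 92 were below 1 FPKM in L4 CNT, where a fall could not reach 1 log2 unit. Their median levels were 10.4 FPKM without and 3.0 FPKM with tunicamycin in EMBRYO worms, and 0.819 and 0.768 FPKM in L4 worms. The gene clx-1 was at 196, 183, 169 and 162 FPKM in EMBRYO CNT and 0.381, 0.256, 0.456 and 0.0922 FPKM in EMBRYO TM. It was 0.0669, 0.0447, 0.0990 and 0 FPKM in L4 CNT and listed at 0 in every L4 TM library. The EMBRYO effect was -7.11 log2 units, and with no level to lose in L4 worms the interaction of -7.03 restates it. The same low L4 levels held for the inducible chaperone hsp-70, at 13.8 to 15.9 FPKM in EMBRYO CNT against 0.374 to 0.560 FPKM in EMBRYO TM and 0.117 to 0.202 FPKM in L4 CNT. The small heat shock genes hsp-16.21 and hsp-16.20 fell by 5.21 and 2.85 log2 units in EMBRYO worms, and neither L4 group exceeded 1 FPKM. Of 13 heat shock genes tested, 2 were called higher and 5 lower (53.8% called, against 10.7% over all genes). F40G12.5 (-4.52), C37A5.6 (-4.51) and fipr-23 (-3.44), the last of a family related to fungus-induced peptides, were the other leading falls, and C37A5.6 was listed at 0 in every L4 CNT library. Insulin-like peptides were called higher in 3 and lower in 6 of 19 genes (47.4%). Among those called lower, ins-2 fell from a range of 11.4 to 14 FPKM to one of 0.276 to 1.19 FPKM in EMBRYO worms. Another was ins-20 (-1.87), which voom did not call.

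**Figure D4:**
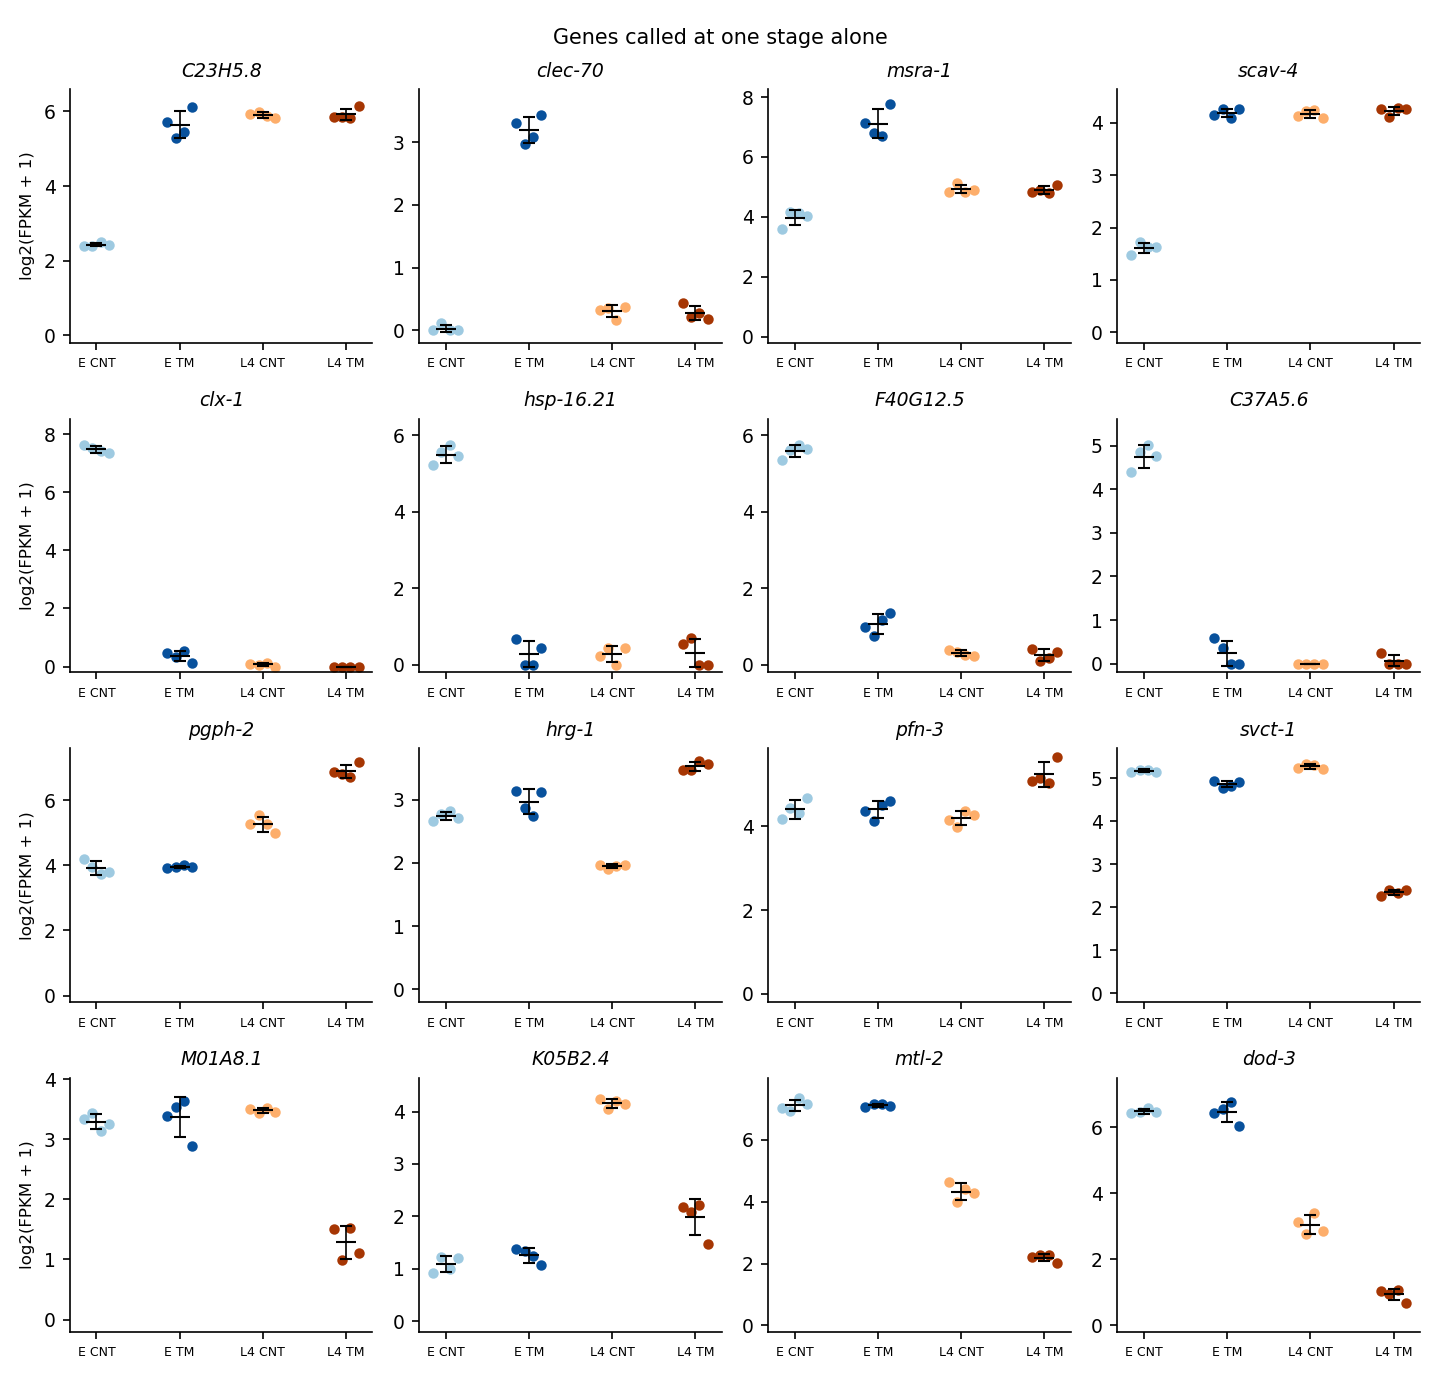
Level in log2(FPKM + 1) of genes that responded at 1 stage alone, with single libraries as points and the mean ± SD as bars (E, EMBRYO). Each panel shows a separation of TM from CNT at 1 stage, and at the other either overlapping groups or a smaller difference.

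L4 worms alone responded in 55 genes, and 52 of these fell. Their median levels were 14.5 FPKM in EMBRYO CNT, 14.8 FPKM in EMBRYO TM, 17 FPKM in L4 CNT and 5.2 FPKM in L4 TM, so the gene was usually present in EMBRYO worms too. In the largest, svct-1, the values were 34.6, 35.9, 35.9 and 34.4 FPKM in EMBRYO CNT and 29.5, 26.5, 27.4 and 29.1 FPKM in EMBRYO TM. The L4 values were 37.1, 39.4, 38.7 and 36.3 FPKM in CNT and 3.8, 4.26, 4.05 and 4.27 FPKM in TM. The L4 TM libraries were far below all the others, and the interaction was 2.62 ± 0.08 (SE; limma, Benjamini-Hochberg adjusted p = 6.33e-12). A smaller fall of 0.31 in EMBRYO worms passed the test as well. The metallothionein mtl-2, which binds heavy metals, was at 122 to 163 FPKM in EMBRYO CNT and 132 to 142 FPKM in EMBRYO TM, and fell from a range of 14.7 to 23.8 FPKM to one of 3.04 to 3.83 FPKM in L4 worms. The same shape held for dod-3, a gene downstream of the FOXO factor DAF-16 (-0.04 and -2.11), M01A8.1 (0.07 and -2.2) and K05B2.4 (0.17 and -2.17). The cytochrome P450 genes cyp-33C4 and cyp-37B1 fell by 1.97 and 1.8 in L4 worms. So did the desaturases of polyunsaturated fatty acid synthesis, fat-2 (delta-12, by 1.03) and fat-3 (delta-6, by 1.09). Thus 4 of 7 desaturases were called higher, 2 as opposite genes and 2 through an L4 fall. A smaller EMBRYO rise of 0.29 in fat-2 passed the test as well. The interaction of fat-3, 1.04, was under 1 without the 3 distant libraries.

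Only 3 genes rose in L4 worms alone. The phosphoglycolate phosphatase homologue pgph-2 was at 12.2 to 17.4 FPKM in EMBRYO CNT against 14.2 to 15.1 FPKM in EMBRYO TM, 30.9 to 46.1 FPKM in L4 CNT and 105 to 144 FPKM in L4 TM, an interaction of -1.6. The heme transporter hrg-1 rose from a range of 2.75 to 2.91 FPKM to one of 10.0 to 11.2 FPKM in L4 worms (-1.35). The profilin pfn-3, which binds actin monomers, had an interaction of -1.04 that was no longer beyond 1 without the 3 distant libraries.

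The genes in which both effects went upward included fat and propionate metabolism and cuticle genes. The acyl-CoA dehydrogenase acdh-1 begins the propionate shunt, a route that worms use when vitamin B12 is scarce. It had the largest rise in this class. The EMBRYO CNT libraries held 0.565, 0.584, 0.739 and 0.645 FPKM and the EMBRYO TM libraries 326, 303, 293 and 374 FPKM. In L4 worms the step was smaller, from 22.4, 24.8, 22.6 and 23.4 FPKM to 34.8, 31.1, 33.4 and 38.9 FPKM, again without overlap. The effects were 7.63 and 0.54 and the interaction 7.09 ± 0.12 (SE; limma, Benjamini-Hochberg adjusted p = 2.27e-15). The later shunt genes ech-6, hach-1 and hphd-1 had EMBRYO effects of 2.1, 2.05 and 2.92 and L4 effects of 0.3, 0.47 and 0.55, so that 4 of the 5 shunt genes were called higher. In ech-6 the L4 effect did not pass the test. Of 27 mitochondrial fatty acid oxidation genes 8 were called, all higher, with acdh-1 and ech-6 of the shunt counted here again. Among them hacd-1, a hydroxyacyl-CoA dehydrogenase, had effects of 3.02 and 0.27, and acdh-2 was at 12.2 to 18.1 FPKM in EMBRYO TM and at most 0.571 FPKM in any library of the other groups. The elongases elo-5 and elo-6, which make branched-chain fatty acids, rose in EMBRYO worms by 3.18 and 3.06 and in L4 worms by 1.17 and 0.71, and the elongase elo-2 by 1.94 and 0.41. The ABC transporter pmp-5 had effects of 3.75 and 1.73. The infection response gene irg-8 rose from a range of 3.58 to 4.78 FPKM to one of 134 to 173 FPKM in EMBRYO worms and from a range of 42.7 to 49.1 FPKM to one of 102 to 126 FPKM in L4 worms. In one gene the larger rise was in L4 worms: gpdh-1, whose enzyme makes glycerol for osmotic protection, had effects of 1.0 and 2.85.

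Cuticle collagens were called higher in 48 and lower in 2 of 126 genes, and 15 of them rose at both stages. Their medians were 0.67 for the interaction, 0.66 for the EMBRYO effect and 0.03 for the L4 effect. The collagen col-133 was at 4.56 to 6.59 FPKM in EMBRYO CNT against 122 to 148 FPKM in EMBRYO TM, 9.47 to 19.3 FPKM in L4 CNT and 14.5 to 30.0 FPKM in L4 TM, where the L4 groups overlapped. EMBRYO effects of 3.87 for col-7 and 3.23 for col-62 stood beside L4 effects of 0.53 and 0.25, which did not pass the test. Of 25 collagens whose mutants change body shape, 13 were called higher and none lower, among them rol-1 (2.4) and bli-2 (2.05). So were 11 of 36 hedgehog-related genes of the epidermis (30.6%, against 10.7% over all genes). That last count was 6 without EMBRYO TM replicate 3. The summed level of 5 epidermal markers was 1024 to 1283 FPKM in EMBRYO CNT, 1189 to 1315 in EMBRYO TM, 499 to 1135 in L4 CNT and 317 to 995 in L4 TM. Most of it was itself a cuticle collagen, col-19, with means of 1073, 1161, 878 and 757 FPKM in these groups. The lowest L4 sums were those of L4 CNT replicate 2 and L4 TM replicate 4, where col-19 was at 430 and 248 FPKM. The marker rol-6 is also in the body-shape list.

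Both effects were downward for the flavin monooxygenase fmo-2, with 48.9, 50.5, 55.1 and 58.3 FPKM in EMBRYO CNT and 1.8, 1.21, 1.06 and 1.78 FPKM in EMBRYO TM, then 10.9 to 11.6 FPKM in L4 CNT and 5.52 to 7.33 FPKM in L4 TM. The interaction was -3.74 ± 0.15. The antimicrobial peptide genes cnc-11 (-3.56) and fipr-24 (-2.7) had the next largest, but voom called neither, and cnc-11 was listed at 0 in all L4 TM libraries. Redox genes differed in direction among themselves. The superoxide dismutase genes sod-5 and sod-3 fell in EMBRYO worms, sod-5 from a range of 51.5 to 69.5 FPKM to one of 1.03 to 1.71 FPKM and sod-3 from a range of 54.9 to 62.8 FPKM to one of 12.2 to 15.4 FPKM, and their L4 effects of -0.23 and 0.37 did not pass the test. Both were under 8 FPKM in every L4 library. Glutathione S-transferases, which conjugate glutathione to toxic compounds, were called higher in 5 and lower in 7 of 35 genes (34.3%). The largest were gst-35 (-2.24, not called by voom), gst-15 (-2.1) and gst-3 (-2.09), and each fell in EMBRYO worms. The DAF-16 linked gene dao-6 was at 127 to 196 FPKM in EMBRYO CNT and 1.43 to 2.55 FPKM in EMBRYO TM, and below 1 FPKM in every L4 library, whereas dod-17 rose at both stages (2.45 and 0.48). Among genes that met none of the shape rules, hrg-11.2 rose in EMBRYO worms from a range of 2.06 to 2.84 FPKM to one of 25.3 to 61.5 FPKM, and the lectins clec-169 and clec-47 had interactions of 4.55 and 3.53. Of 35 histone genes 9 (25.7%) were called, all lower, and of 60 neuropeptide-like genes 6 (10%), all lower. Over all genes 10.7% were called, and 4.22% were called lower. The largest of each list were his-13 (-1.55) and nlp-39 (-1.97), neither of which voom called. The summed level of 8 neuronal markers was 600.2 to 651 FPKM in EMBRYO CNT, 320 to 343 in EMBRYO TM, 263 to 318 in L4 CNT and 212 to 298 in L4 TM. The largest falls of EMBRYO means were those of egl-3 (200.8 to 71.2 FPKM) and egl-21 (189.5 to 82.0 FPKM). The EMBRYO effects of snb-1 and rab-3 did not pass the test, while those of the other markers did, all downward.

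Yolk protein genes differed most among the tissue markers. All 6 yolk protein genes were called higher. For vit-1 the mean was 4.22 FPKM in EMBRYO CNT and 548 FPKM in EMBRYO TM, with an L4 effect that did not pass the test and an interaction of 6.17. Body wall muscle markers summed to 2153 to 2584 FPKM in EMBRYO CNT, 513 to 1361 in EMBRYO TM, 319 to 390 in L4 CNT and 240 to 310.4 in L4 TM. Most of the EMBRYO sums was unc-54 (means of 1048 and 461 FPKM) and unc-15 (1005 and 353 FPKM). The EMBRYO effects of mup-2 and unc-22 did not pass the test. The part of tissue proportion, or of progress through adulthood, in the collagen and neuropeptide counts was not tested either. All markers of these lists were above 0 in the group means.

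**Figure D5:**
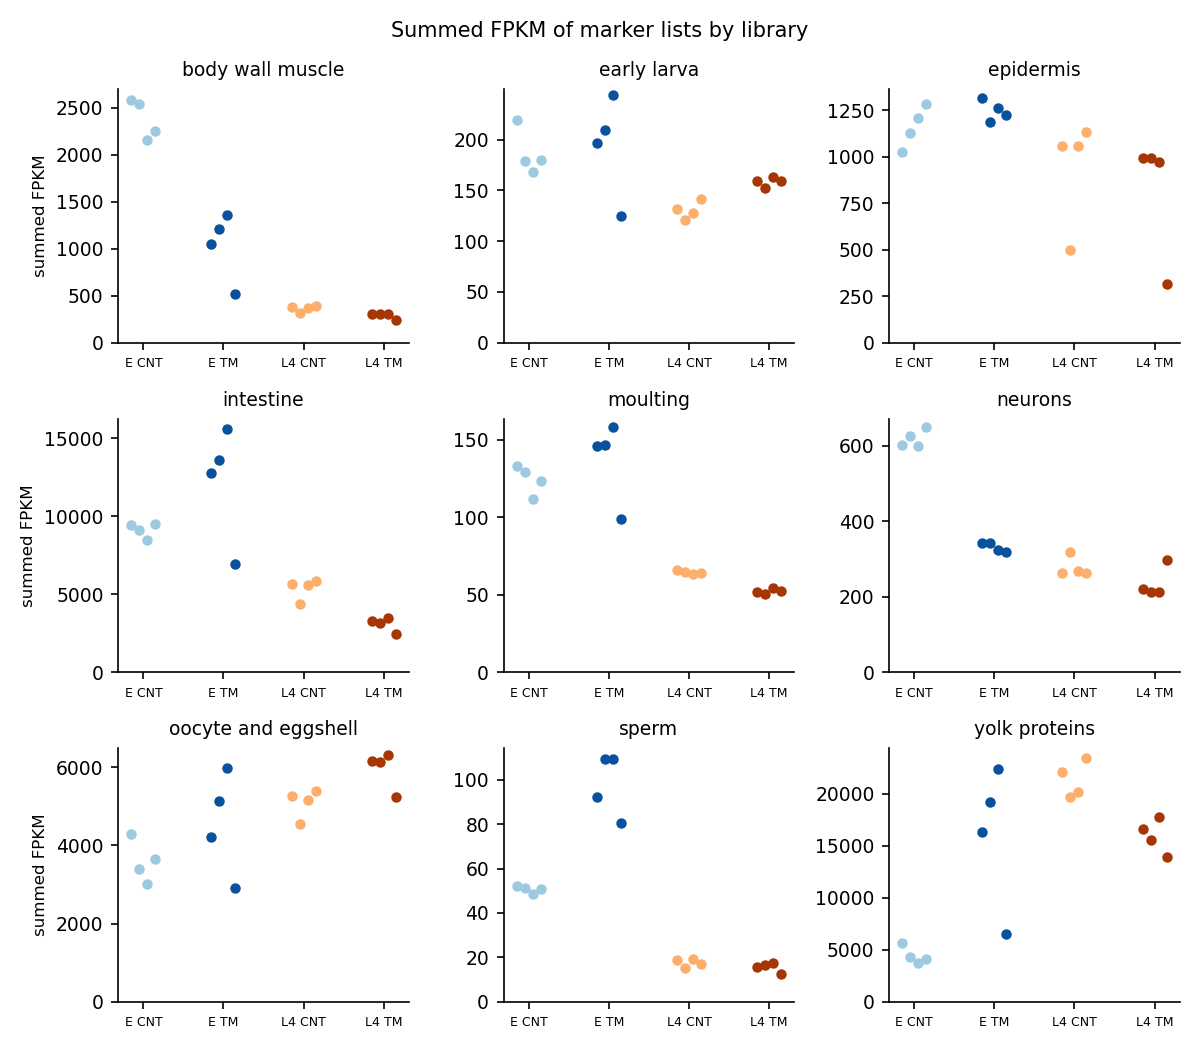
Summed FPKM (y axis, linear from 0) of 9 marker lists, 1 panel per list and 1 point per library, by group. Sperm sums are highest in the EMBRYO TM libraries and intestinal sums in all of them but replicate 4, whereas muscle and neuronal sums are highest in EMBRYO CNT.

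The UPR itself, the pathway that tunicamycin triggers, had no called gene. Among the 5 UPR sensors and transcription factors, 19 ER chaperones, 14 genes of ER-associated degradation and 19 of N-glycosylation, none had an interaction beyond 1 with adjusted p under 0.05 (limma, Benjamini-Hochberg). Smaller differences passed the adjusted p alone in 9 of these 57 genes, 4 of the 5 sensors and factors and 5 chaperones. The unadjusted p was under 0.05 in 14, and voom called none. The ER chaperone BiP gene hsp-4 was at 82.3, 69.7, 66.7 and 81.8 FPKM in EMBRYO CNT and 148, 144, 151 and 133 FPKM in EMBRYO TM. In L4 worms it was 128, 126, 129 and 135 FPKM in CNT and 204, 191, 202 and 171 FPKM in TM. It rose at both stages without overlap, by 0.93 and 0.56, and the interaction was 0.37, with a 95% interval of 0.12 to 0.63 (limma, Benjamini-Hochberg adjusted p = 0.0252). The other BiP gene, hsp-3, had an interaction of 0.35 (95% interval -0.12 to 0.82). Of the sensors, ire-1 had -0.13 (-0.32 to 0.05), pek-1 0.32 (0.11 to 0.53) and atf-6 -0.81 (-1.07 to -0.56). In atf-6 the EMBRYO effect of -0.58 passed the test and the L4 effect of 0.23 did not, and pek-1 fell at both stages, by 0.2 and 0.52. The transcription factor xbp-1, the target of IRE-1 splicing, had 0.43 (0.24 to 0.61), as a total of all its forms.

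The medians of the stage effects are given for each list. The 19 chaperones had medians of 0.31 for the EMBRYO effect and 0.27 for the L4 effect, with single interactions from -0.6 (dnj-27) to 0.62 (dnj-7) and 15 of 19 intervals inside ±1. In the 14 degradation genes all intervals lay inside ±1, as in the 19 N-glycosylation genes, whose medians were 0.22 and 0.23. The target of tunicamycin itself, the glycosyltransferase gene algn-7, had an interaction of -0.03 (-0.34 to 0.28). A miss of the threshold does not show that the stages responded alike, but for the degradation and N-glycosylation genes a difference above 1 log2 unit lay outside the 95% interval. Of the mitochondrial stress genes, atfs-1 had 0.19 (-0.08 to 0.45) and the chaperone hsp-6 -0.34 (-0.79 to 0.11). In that list of 10 only lonp-2 was called, and it is the peroxisomal Lon protease described above. The oxidative stress reporter gene gst-4 rose at both stages, by 0.99 and 1.34, with an interaction of -0.35 (-1.03 to 0.32). Without any call were also 28 core autophagy genes, 33 proteasome genes, 82 cytosolic and 70 mitochondrial ribosomal protein genes, and in all 18 of the 66 function lists, with 486 genes tested. Of these 486, 113 had an unadjusted p under 0.05 in limma and 72 an adjusted one (Benjamini-Hochberg), and voom called 6.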

How the data were processed

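RNA was sequenced from whole N2 worms, 4 libraries in each of 4 groups. Per the study's methods the authors mapped reads with HISAT2 2.0.5, counted them per gene with featureCounts 1.5.0-p3 and deposited FPKM values. For the genome build no source used here gives a name. The deposited table also holds gene lengths in bases, used here only to turn FPKM back into reads, and 4 columns of group means that were not used. In each library all values came out as whole multiples of 1 unit, within 0.01 of it in 100% of cases, and that unit was taken as 1 read. In L4 TM replicate 4 few genes stood at 1 unit, so the number recovered there is not taken as its depth.

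Genes with a mean of at least 1 FPKM were tested on log2(FPKM + 1), which understates the change of low genes, with limma 3.58.1 in R 4.3.3 (all 16 libraries in one fit, Benjamini-Hochberg adjustment over all genes tested). Descriptions and plots used Python 3.11.15, pandas 2.3.3 and matplotlib 3.10.9. Symbols came from a RefSeq gene table, which matched 45305 of the 46589 identifiers. On simulated data run over 13718 genes, all 70 opposite genes, changed by 1.5 log2 units each way, were called and placed in their class. In that run 81.4% of 70 genes changed in EMBRYO alone and 86.7% of 60 changed in L4 alone were placed in theirs, and 2.91% of calls were wrong. The opposite genes of the real libraries had smaller median effects. These were 0.82 and -0.72 log2 units in the 276 genes, and -0.71 and 0.57 in the 39. Whether the simulated rates hold for changes of that size, or for these libraries, was not tested.

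The members and the function lists were chosen with earlier results of these data known. Named were the 8 opposite genes of each kind with the largest interaction and separate groups at both stages, the 5 largest rises and falls at one stage alone, the 3 largest of each same-direction class, the 3 largest called members of each function list with at least 3 calls (in lists of at most 10 genes every called member), and 10 genes of stress pathways whatever their values. Of the 153 genes this gave, 37 from lists that are not described are not printed. Genes named beside small counts, and tissue markers, were chosen after their values were seen. One plate population made each library, and whether the plates of a group came from separate cultures is not stated, so p-values measure the spread between these libraries.

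Alternatives were other added constants, filters, rescalings, a replicate block, voom on the recovered reads, other interval limits, and leaving out libraries; the last set, without the 3 libraries farthest from their groups, was chosen after seeing the data.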

Additional observations from a re-analysis of the deposited data

Results flagged for a closer look

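The effect of tunicamycin differed between the stages by the interaction test (size above 1 log2 unit and adjusted p under 0.05, limma with the Benjamini-Hochberg adjustment) in 901 genes with the higher effect in EMBRYO worms and 585 with the lower one. Of the genes named in the report, with the interaction in log2 units after each, those that rose in EMBRYO TM and fell in L4 TM were F49C12.7 (5.99), ugt-18 (5.59), cpr-4 (5.42), ech-9 (5.41), lipl-1 (5.09), Y39B6A.1 (5.07), pud-3 (4.84), acox-1.5 (4.83), lonp-2 (2.16), cpr-1 (4.21), asp-12 (4.15), lipl-2 (2.35), lipl-3 (2.0), gba-4 (2.86), gba-1 (2.51), asah-1 (2.4), fat-5 (2.82), fat-7 (4.05), dhs-28 (2.05), prx-11 (1.64), ctl-2 (2.38), pud-1.1 (3.27), pud-1.2 (3.7), pud-2.1 (3.04), pud-2.2 (4.2), pud-4 (3.86), cyp-37A1 (1.94), ilys-5 (4.94), spp-4 (4.57), spp-21 (4.48), irg-7 (1.39), math-38 (2.22) and math-34 (2.05). Those that fell in EMBRYO TM and rose in L4 TM were nspe-7 (-3.52), W04E12.7 (-2.56), spi-2 (-2.03), ncs-3 (-1.65), T01D1.3 (-1.58), zip-8 (-1.51), ins-29 (-1.5) and nspc-4 (-1.44). In EMBRYO worms alone the rises were C23H5.8 (3.19), clec-70 (3.2), msra-1 (3.16), scav-4 (2.53), Y47G6A.33 (2.65), pmp-1 (2.13), hmit-1.2 (1.08), irg-4 (1.41), gsp-3 (1.63) and gsp-4 (1.45), and the falls clx-1 (-7.03), hsp-16.21 (-5.24), F40G12.5 (-4.47), C37A5.6 (-4.57), fipr-23 (-3.4), hsp-70 (-3.59), hsp-16.20 (-2.94), gst-15 (-2.1), nspe-6 (-2.6), ins-2 (-2.89) and ins-20 (-1.87). In L4 worms alone pgph-2 (-1.6), hrg-1 (-1.35) and pfn-3 (-1.04) rose and svct-1 (2.62), M01A8.1 (2.27), K05B2.4 (2.34), mtl-2 (2.13), dod-3 (2.07), fat-2 (1.32), fat-3 (1.04), cyp-33C4 (1.76) and cyp-37B1 (1.66) fell. Both effects were upward in acdh-1 (7.09), col-133 (3.62), irg-8 (3.61), elo-6 (2.35), elo-5 (2.01), elo-2 (1.53), pmp-5 (2.02), hach-1 (1.58), hphd-1 (2.37), gpdh-1 (-1.84), dod-17 (1.96), rol-1 (2.4) and bli-2 (2.05) and downward in fmo-2 (-3.74), cnc-11 (-3.56) and fipr-24 (-2.7). Other shapes were seen in acdh-2 (3.22), hacd-1 (2.75), ech-6 (1.8), sod-5 (-4.53), sod-3 (-2.38), hrg-11.2 (4.18), dao-6 (-5.59), gst-35 (-2.24), gst-3 (-2.09), clec-169 (4.55), clec-47 (3.53), col-7 (3.34), col-62 (2.99), nspa-7 (-2.91), his-13 (-1.55) and nlp-39 (-1.97).

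In 50 of the 464 groups of 4 libraries examined, over the 116 genes named by rule, the highest or lowest library stood apart from the other 3 by more than Dixon's 95% limit. That is 10.8% of the groups, where chance alone gives about 1 in 20, and many of the genes share the same libraries. 34 of the 50 fell in the 3 libraries that lie farthest from their groups. Values in FPKM follow the gene. In L4 CNT replicate 2, cpr-4 (419.73), pud-3 (109.74), Y47G6A.33 (50.825), cpr-1 (807.59), gba-1 (29.184), dhs-28 (391.74), ech-6 (90.333), ilys-5 (596.43), xbp-1 (151.79) and hsp-6 (162.67) lay below and gba-4 (226.56), fat-7 (163.07), elo-5 (176.96) and pmp-5 (6.585) above the other 3 libraries of the group. In L4 TM replicate 4, cpr-4 (113.19), Y39B6A.1 (257.35), col-133 (14.544), cpr-1 (148.64), fat-5 (16.712), ech-6 (108.39), clec-169 (0.015253), ilys-5 (198.7) and col-62 (6.8689) lay below and ech-9 (4.1258), C23H5.8 (70.005), pfn-3 (49.835), fat-3 (114.77), elo-5 (449.1), hphd-1 (60.681) and dod-17 (5.472) above the other 3 libraries of the group. In EMBRYO TM replicate 4, nspc-4 (5.6405), hrg-11.2 (25.294) and cyp-37A1 (44.312) lay below and dod-17 (9.1317) above the other 3 libraries of the group. Further single values in EMBRYO CNT were those of nspc-4 in replicate 2 (16.801, high), clec-70 in replicate 2 (0.080314, high), col-133 in replicate 3 (4.5562, low), hphd-1 in replicate 4 (20.235, high), pud-2.1 in replicate 4 (25.674, high), gst-15 in replicate 1 (56.12, low), atf-6 in replicate 3 (16.198, low) and xbp-1 in replicate 4 (128.18, low). Further single values in EMBRYO TM were those of nspa-7 in replicate 1 (5.753, high) and math-38 in replicate 1 (40.057, high). Further single values in L4 CNT were those of nspa-7 in replicate 1 (0.37417, high). Further single values in L4 TM were those of scav-4 in replicate 2 (16.227, low), C37A5.6 in replicate 1 (0.18968, high), fipr-23 in replicate 1 (0.070828, high), nspa-7 in replicate 2 (0.52002, high) and his-13 in replicate 1 (0.24368, high).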

How the results depend on the processing

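The counts of called genes were 901 and 585 (EMBRYO effect higher and lower), of opposite genes 276 and 39, and of genes at one stage alone 364 (EMBRYO) and 55 (L4). With 5 FPKM added in place of 1, 515 and 237 genes were called and 13 fell in EMBRYO and rose in L4. With 0.1 FPKM added, 59 genes fell in EMBRYO and rose in L4, and 217 responded in EMBRYO alone. Voom on the recovered reads gave 61 and 210 for those counts, called 1745 genes, kept 1244 of the 1486 calls, and turned the sign of 18. A filter at a mean of 5 FPKM gave 277 called lower and 224 in EMBRYO alone, from fewer genes tested. With no limit on size 2056 and 1996 genes passed. With the interval limit at 0.3 the genes at one stage alone numbered 70 (EMBRYO) and 12 (L4), and with the limit at 1 they numbered 841 and 129, since the limit defines them. At the limit of 1, 192 of the 276 and 35 of the 39 opposite genes kept their class. Leaving out 1 library gave 877 to 928 called higher, 515 to 634 lower, 251 to 299 and 32 to 43 opposite genes, and 286 to 429 in EMBRYO and 45 to 60 in L4 alone. Replicate numbers did not pair the libraries (correlations of same-numbered deviations within a stage from -0.31 to 0.2). With the replicate block 1478 genes were called, 1471 of them among the 1486, and with a replicate block within each stage 1458. L4 CNT replicate 2 correlated best, at 0.47, with an L4 TM library of another number, which a block by replicate number does not take up. In L4 CNT replicate 2 and L4 TM replicate 4 alike, cpr-4, cpr-1, ech-6 and ilys-5 stood low and elo-5 high. What these libraries share was not tested. The uncalled interaction of algn-7, -0.03, changed sign, at -0.11 to 0.033 with 1 library left out and 0.032 without the 3 distant libraries. Rescaling to a common total moved the median interaction of all genes to -0.08. Of 4097 values of named genes under the alternatives, 4033 kept direction and side of the threshold, 59 kept direction alone and 5 turned, all of algn-7. Among lists, 5 FPKM added took C-type lectins called higher from 38 to 24, cytochrome P450 genes from 9 to 3 and histones called lower from 9 to 0, and voom gave 3 for the histones and 3 for the insulin-like peptides called lower. Depths of 12361026 to 26922902 fragments in 15 libraries limit the precision of genes under a few FPKM most. For L4 TM replicate 4 the depth is uncertain, and voom used the recovered number there too.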
